A study of Arabidopsis thaliana with 32 samples.

Results

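Transcript levels after 24 h were compared with those after 1 h in Arabidopsis thaliana seedlings held in low red to far-red light at 30 °C, the combined treatment called 30FR. The comparison rests on 4 of the 32 libraries of the series, 2 at each time, taken by their labels, and covers the 20145 genes expressed above 1 CPM (read counts scaled to a common library size) in at least 2 of the 32 libraries. After 24 h the small heat shock proteins, the cytosolic and endoplasmic reticulum (ER) chaperones, the antenna proteins of photosystem II, chlorophyll synthesis genes and the morning clock genes CCA1 and LHY were lower than after 1 h. Iron uptake genes, glucosinolate synthesis genes and part of the jasmonate pathway were higher. Iron and glucosinolate genes also rose over the same hours in the other conditions of the series, white light at 21 °C included. Jasmonate genes also rose at 30 °C in white light, and none was called different in its change from another condition. Heat and chaperone genes also fell at 30 °C in white light, whereas the fall of most antenna genes of photosystem II differed from that at 30 °C in white light. In low red to far-red light at 21 °C 6 of the 25 antenna and Rubisco genes fell too. The change was called different from that condition for 4 of the 25. Chlorophyll synthesis genes had a negative median change in every condition.

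All seedlings were Col-0 wild type, raised at 21 °C in constant white light from LEDs and then moved to one of 4 conditions for 1, 3, 6 or 24 h, with 2 biological replicates of pooled whole seedlings per group. The conditions were white light at 21 °C (21WL), low red to far-red light at 21 °C (21FR), white light at 30 °C (30WL) and 30FR. Light was 70 µE (micromoles of photons per square metre per second) in every group. Low red to far-red light had a ratio of 0.6. The 1 h and 24 h groups of 30FR therefore share genotype, raising, light and temperature, and differ in the length of the treatment, while the age of the seedlings and the time spent in 30FR cannot be told apart within 30FR. A change over the same hours in the 3 other conditions is set beside that in 30FR for this reason. Whole seedlings hold roots, hypocotyl and cotyledons, and in such bulk samples fewer cells of a type and less RNA per cell cannot be told apart.

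A low ratio of red to far-red light is the signal of neighbouring plants. Phytochrome B loses its active form in such light and no longer restrains the PHYTOCHROME INTERACTING FACTORS (PIFs), basic helix-loop-helix transcription factors that raise auxin synthesis and stem growth. Warmth inactivates phytochrome B as well and, when the step is abrupt, also engages the heat shock factors, which bind heat shock elements and switch on chaperones that keep proteins folded.

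Counts assigned to genes were 15482279 and 19962038 in the 1 h libraries of 30FR and 24654078 and 20460613 in the 24 h libraries, within the range of 7606788 to 28170966 over the whole series. Replicates had a Pearson correlation across genes of 0.991 at 1 h and 0.994 at 24 h. The scaling factors of the trimmed mean of M-values (TMM) were 0.940 and 0.970 at 1 h against 1.17 at 24 h in both libraries, and the 10 most abundant genes took 8.66% and 7.62% of counts at 1 h against 6.54% and 6.40% at 24 h. A value of 3 counts, taken as the floor, corresponded to 0.206 and 0.155 CPM at 1 h and to 0.104 and 0.126 CPM at 24 h. No marker of mesophyll, root hairs, xylem, the stomatal lineage, dividing cells or embryos was at 0 in any of the 4 libraries. Summed mesophyll markers fell from 37670 and 31820 CPM at 1 h to 17840 and 17260 CPM at 24 h, with 3 of 5 markers called lower, and these 5 markers include antenna and chlorophyll genes described further on. The 5 stomatal lineage markers summed to 51.7 and 61.6 CPM at 1 h and to 32.3 and 33.0 CPM at 24 h with 2 called lower. No marker of the other cells was called. Their sums were 180.5 and 207.9 CPM at 1 h and 221.7 and 262.9 CPM at 24 h for root hairs, and 64.6 and 74.4 CPM against 102 and 93.1 CPM for xylem. For dividing cells they were 44.7 and 51.2 CPM against 75.6 and 66.6 CPM, and for embryos 7.43 and 5.32 CPM against 2.99 and 8.05 CPM, the last with groups that overlapped.

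In 30FR 2082 genes were called, 1161 higher and 921 lower at 24 h than at 1 h. These are 5.76% and 4.57% of the genes tested, 10.3% together. A gene was called where edgeR's quasi-likelihood test gave a Benjamini-Hochberg adjusted p under 0.05 and the log2 fold change (log2FC, 24 h over 1 h) was beyond 1 in either direction. The adjusted p alone was passed by 8276 genes, 4090 higher and 4186 lower. The split depended on the scaling: with library totals in place of TMM 2252 genes were called higher and 504 lower, so that the share called higher moved from 55.8% to 81.7%, and the median log2FC of all genes moved from 0.01 to 0.30. Values below are TMM-scaled, and log2FC are given relative to that scale.

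The same hours gave fewer calls in each of the other conditions. In 21WL 154 genes (0.764% of those tested) were called higher and 57 (0.283%) lower, in 21FR 252 (1.25%) and 199 (0.988%), and in 30WL 790 (3.92%) and 555 (2.76%). Single libraries weighed on these counts: in 21WL it was 110 and 111 genes without replicate 1 or 2 at 1 h. In 21FR the 451 genes became 239 and 252 without replicate 1 or 2 at 1 h, with splits of 114 to 125 and 101 to 151, and 245 and 281 without replicate 1 or 2 at 24 h. With library totals the share called higher moved from 58.7% to 78.0% in 30WL.

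**Figure D1:**
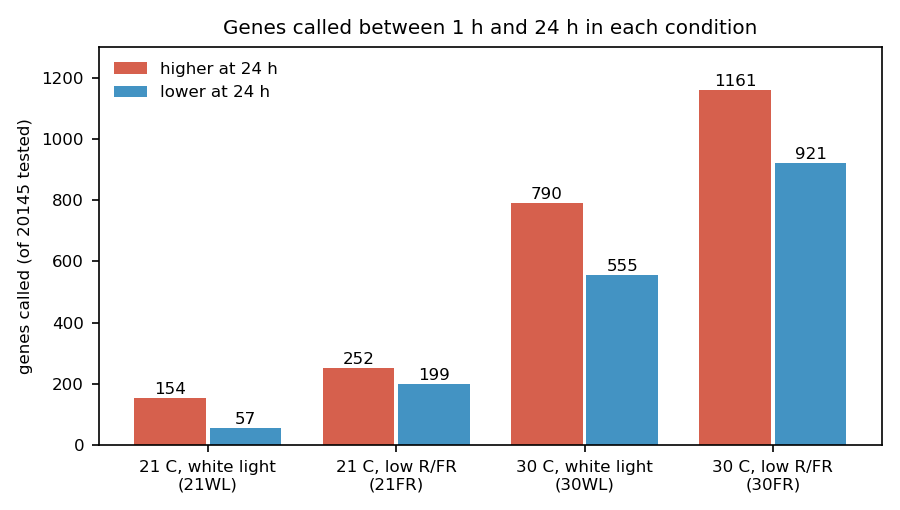
Number of genes called higher and lower at 24 h than at 1 h in each of the 4 conditions (bars, number of genes, 2 libraries per group). The bars of 30FR stand at 1161 and 921 genes and those of 21WL at 154 and 57 genes.

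The 4 comparisons share no library. Of the 1161 genes called higher in 30FR, 107 were called higher in 21WL (9.22% of the 1161 and 69.5% of the 21WL calls), 165 in 21FR (14.2% and 65.5%) and 537 in 30WL (46.3% and 68.0%), and 585 (50.4%) were called higher in none of them. Of the 921 called lower, 46 were called lower in 21WL (4.995% of the 921 and 80.7% of the 21WL calls), 144 in 21FR (15.6% and 72.4%) and 412 in 30WL (44.7% and 74.2%), and 424 (46.0%) in none. A call in 30FR and none elsewhere does not show that the changes differ. The median log2FC of the 1161 genes was 1.38 in 30FR, 0.49 in 21WL, 0.55 in 21FR and 1.02 in 30WL, and that of the 921 genes -1.38, -0.45, -0.57 and -1.02. Across the 20145 genes the log2FC in 30FR had a Pearson correlation of 0.64 with that in 21WL, 0.62 with that in 21FR and 0.83 with that in 30WL, a description across genes, which are not independent replicates.

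The difference between the change in 30FR and the change in another condition was tested in the same model. Against 21WL the change in 30FR was called more positive for 186 genes (0.923% of those tested) and more negative for 259 (1.29%). Against 21FR these were 177 (0.879%) and 225 (1.12%) genes. Against 30WL they were 6 (0.0298%) and 71 (0.352%) genes, with 147 genes passing the adjusted p alone and 1788 genes at an unadjusted p under 0.05. With library totals the share called more positive was 78.8% in place of 41.8% against 21WL and 78.4% in place of 44.0% against 21FR. Left-out libraries moved these counts: without replicate 2 of 30FR at 24 h 261 genes were called against 21WL and 235 against 21FR. Leaving out the first 30WL library at 24 h took the 77 genes against 30WL to 40, and leaving out the first 1 h library of either condition took them to 49. Without the first or the second 30FR library at 24 h they were 46 and 48. Of the 921 genes called lower in 30FR, the difference was called in the same direction for 225 against 21WL, 182 against 21FR and 56 against 30WL, and of the 1161 called higher for 161, 151 and 3. These 3 tests share the 30FR libraries, so the counts are not independent of each other.

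**Figure D2:**
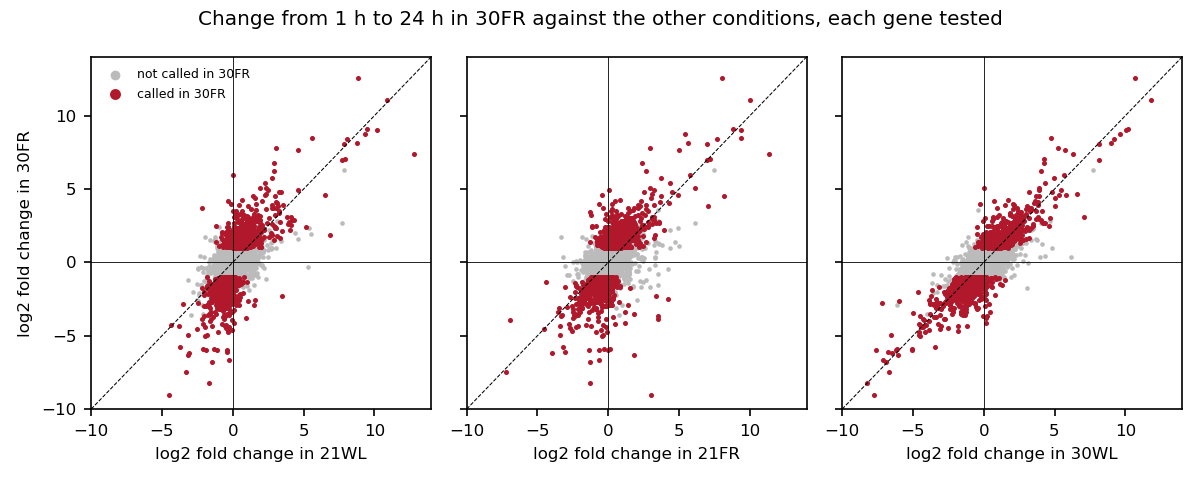
Change from 1 h to 24 h (log2FC) in 30FR (vertical axes) against that in 21WL, 21FR and 30WL (horizontal axes) for each of the 20145 genes, with genes called in 30FR in red and a dashed line of equal change. Pearson r across genes is 0.83 against 30WL, 0.64 against 21WL and 0.62 against 21FR.

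The libraries at 3 h and 6 h were outside the contrast, though part of the same model, and give the levels between its 2 times. Relative to the 1 h mean on the log2(CPM + 0.5) scale, the 1161 genes called higher stood at a median of 0.46 at 3 h, 0.55 at 6 h and 1.11 at 24 h, and the 921 called lower at -0.53, -0.71 and -1.24. The median gene called higher had covered 39.3% of its change at 3 h and 47.1% at 6 h, and the median gene called lower 43.5% and 58.7%. At 3 h 130 of the genes called higher (11.2%) and 147 of those called lower (15.96%) lay on the opposite side of their 1 h level. The same genes in 21WL had medians of 0.50 (called higher) and -0.66 (called lower) already at 1 h on this scale. The 1 h and 24 h libraries of 30FR chose the genes, and genes chosen for a gap between 2 times tend to lie between them at others. The levels and shares at 3 h and 6 h and the 21WL values are therefore descriptions only.

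**Figure D3:**
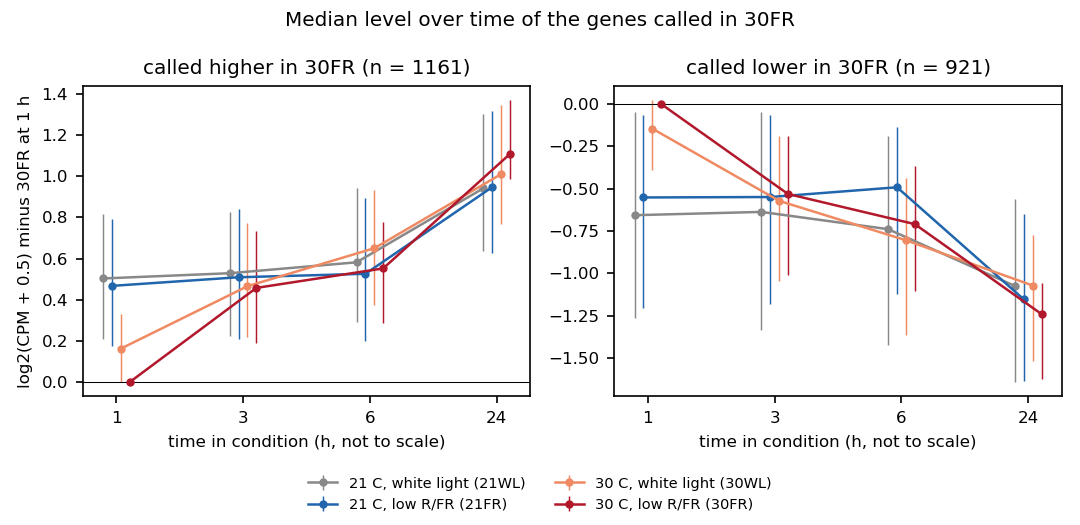
Median and quartiles (bars) over genes of log2(CPM + 0.5) minus the 30FR 1 h mean at 1, 3, 6 and 24 h, for the 1161 genes called higher and the 921 called lower in 30FR, in the 4 conditions. In 30FR the medians run through 0.46 and 0.55 to 1.11 for genes called higher and through -0.53 and -0.71 to -1.24 for genes called lower.

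Small heat shock proteins were among the largest falls of the comparison. Heat shock factors recognise alternating GAA and TTC units, and the promoters below are shown because their genes were among those that fell and hold a run of 3 such units, each spaced by 2 bases, in the 250 bases before the transcription start of the RefSeq annotation (assembly TAIR10.1). Each is printed 5′ to 3′ on the strand of the gene, with the run in capitals. HSFA2 and HSFA7A encode heat shock factors themselves, HSP17.4 and AT1G53540 encode small heat shock proteins, and GOLS1 encodes galactinol synthase, which makes the precursor of raffinose. The windows are chr2:11135512-11135571 on the plus strand for HSFA2, chr3:19264944-19265016 on the plus strand for HSFA7A, chr3:16984869-16984972 on the minus strand for HSP17.4, chr1:19980222-19980281 on the plus strand for AT1G53540 and chr2:19370543-19370602 on the minus strand for GOLS1.
HSFA2: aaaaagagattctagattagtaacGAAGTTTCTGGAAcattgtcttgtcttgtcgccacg
HSFA7A: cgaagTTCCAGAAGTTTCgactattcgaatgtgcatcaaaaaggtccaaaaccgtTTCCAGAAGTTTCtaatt
HSP17.4: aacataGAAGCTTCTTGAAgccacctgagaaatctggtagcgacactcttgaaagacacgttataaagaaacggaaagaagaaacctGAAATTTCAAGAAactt
AT1G53540: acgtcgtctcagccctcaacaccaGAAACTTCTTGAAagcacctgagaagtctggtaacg
GOLS1: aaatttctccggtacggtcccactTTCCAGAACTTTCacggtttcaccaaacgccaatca
A run of this kind was found in 0.439% of all 20036 promoters, 1.09% of the 915 promoters of genes called lower and 0.776% of the 1160 of genes called higher. It was found in 3 of 18 heat shock factors, which are the 3 that fell (HSFA2, HSFA7A and HSFA7B). It was found in 2 of the 15 small heat shock proteins that fell (HSP17.4 and AT1G53540). Among the 19 cytosolic chaperone genes it was found in 2, of which only GOLS1 was among the 12 that fell. A match is a description of letters and not a binding site.

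Small heat shock proteins bind unfolding proteins and hold them soluble. Of 17 tested, 15 fell and 1 rose in 30FR, with a median log2FC of -5.95 and a range of -9.04 to 3.22, beside a median of 0.01 over all genes. Their summed level was 7024 and 5612 CPM at 1 h and 298 and 303 CPM at 24 h, while in 21WL it was 123 and 115 CPM at 1 h and 95.1 and 94.5 CPM at 24 h. The sum in 30FR at 24 h thus stood above that in 21WL in both libraries. HSP17.6II, a cytosolic class II member, was at 694 and 558 CPM at 1 h and 1.91 and 2.31 CPM at 24 h. Both early libraries were far above both late ones (log2FC -8.22, SE 0.49, adjusted p 2.9e-10), and the mean was already down at 33.8 CPM at 3 h and 9.26 CPM at 6 h. AT2G29500, which the annotation gives as an HSP20-like chaperone, was at 1228 and 1151 CPM at 1 h and 17.2 and 21.4 CPM at 24 h (log2FC -5.95, adjusted p 1.5e-10). AT1G53540, of the same family, was at 827 and 571 CPM at 1 h and 6.36 and 7.84 CPM at 24 h (log2FC -6.62, adjusted p 6.0e-09). HSP17.4, whose promoter is shown above, was at 974 and 708 CPM at 1 h and 12.4 and 16.2 CPM at 24 h (log2FC -5.88, adjusted p 2.3e-08). None of these 3 genes had overlapping groups.

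Organelle members fell as well. HSP21 of the chloroplast went from 993 and 756 counts at 1 h to 2 and 3 counts at 24 h, a ratio of 543 with a 95% counting interval of 232 to 1674 (an exact interval that covers counting error only). HSP23.6-MITO of the mitochondrion was at 366 and 336 CPM at 1 h and 4.55 and 6.84 CPM at 24 h, and ATHSP22.0 of the ER was at 158 and 121 CPM at 1 h and 1.35 and 2.27 CPM at 24 h, with log2FC of -5.96 and -6.28. HSP17.6A, the other class II gene, was at 584 and 426 CPM at 1 h and 6.25 and 8.14 CPM at 24 h (log2FC -6.14, adjusted p 4.3e-07). The 1 member that rose was AT5G47600, at 1.44 and 0.775 CPM at 1 h and 9.69 and 10.6 CPM at 24 h (log2FC 3.22, adjusted p 9.2e-07), also with groups that did not overlap.

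In 30WL the same 15 to 1 split of calls was found, with a median of -6.04, and in 21WL and 21FR no member was called. The difference of the changes was called more negative for 6 members and more positive for 1 against 21WL, and for 11 and 1 against 21FR. Those against 21WL include AT2G29500 (-5.54 on the log2 scale, adjusted p 2.6e-06) and AT1G53540 (-6.36, adjusted p 0.034). HSP17.6II (-6.55, adjusted p 0.14), HSP17.4 (-4.53, adjusted p 0.066) and HSP17.6A (-5.70, adjusted p 0.15) were not called against 21WL. Against 30WL the difference of the changes was 0.24 for AT2G29500 (adjusted p 0.93) and 0.06 for HSP17.6II (adjusted p 0.999). No difference from 30WL was called for any of the 17.

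Of the 18 heat shock factors tested out of 21 listed, HSFA2, HSFA7A and HSFA7B fell, and the other 15 were not called. HSFA2, the factor that sustains the heat response, was at 192 and 180.1 CPM at 1 h and 8.2 and 9.48 CPM at 24 h (log2FC -4.39, SE 0.621, adjusted p 1.2e-05). HSFA7B was at 2.68 and 2.38 CPM at 1 h and 0.139 and 0.126 CPM at 24 h (log2FC -4.18, adjusted p 0.0016), whereas HSFA1A, a factor present without heat, was at 8.11 and 7.7 CPM at 1 h and 7.92 and 9.19 CPM at 24 h (log2FC 0.11, adjusted p 0.57) with overlapping groups. HSFB4 was slightly lower (log2FC -0.52, adjusted p 0.005) and short of the fold threshold.

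Among 19 cytosolic chaperones and heat cofactors 12 fell and none rose (median log2FC -1.82), and 11 fell in 30WL. Their summed level was 11450 and 11430 CPM at 1 h and 4438 and 4492 CPM at 24 h. ROF2, an FKBP-type prolyl isomerase that binds HSP90, was at 1741 and 1706 CPM at 1 h and 89.8 and 90.8 CPM at 24 h (log2FC -4.25, SE 0.374, adjusted p 3.9e-08). HSA32, needed for acquired heat tolerance, was at 201 and 137 CPM at 1 h and 12.5 and 13.5 CPM at 24 h (log2FC -3.70, adjusted p 9.3e-10). HSP101, the disaggregase of the cytosol, was at 243 and 259.6 CPM at 1 h and 45.6 and 50.1 CPM at 24 h (log2FC -2.39, adjusted p 7.3e-04), and no groups of these 3 genes overlapped. APX2, a cytosolic ascorbate peroxidase, was at 39.4 and 19.4 CPM at 1 h and 1.01 and 0.755 CPM at 24 h (log2FC -5.03, adjusted p 1.9e-06). The HSP70 gene of the list was at 2043 and 2079 CPM at 1 h and 334 and 353 CPM at 24 h (log2FC -2.58), a value that is uncertain where reads are shared with near-identical HSP70 copies, since reads that mapped to several places were not counted.

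ER chaperones fold and guard secreted proteins. All 12 tested passed the adjusted p on the lower side in 30FR, and 10 were called lower (median log2FC -1.17), beside 6 called lower in 30WL and none in 21WL or 21FR, where 1 gene each was called higher. The difference of the changes was called for 9 members against 21WL, 10 against 21FR and none against 30WL, where its median was -0.16. CRT1b, a calreticulin, was at 476 and 602 CPM at 1 h and 203 and 204 CPM at 24 h (log2FC -1.41, SE 0.114, adjusted p 1.3e-08). ERDJ3B and SDF2, partners of the ER HSP70, had log2FC of -1.27 (adjusted p 6.6e-08) and -1.18 (adjusted p 1.0e-06), and both fell short of the fold threshold with library totals (-0.99 and -0.89). Hrd1B, an ER ubiquitin ligase of the disposal route for misfolded proteins, was at 203 and 227 CPM at 1 h and 62 and 62.8 CPM at 24 h (log2FC -1.78, adjusted p 2.9e-10). UTR1, a UDP-galactose transporter of the ER, was at 62.7 and 73 CPM at 1 h and 16.5 and 14.3 CPM at 24 h (log2FC -2.14, adjusted p 1.2e-10). For Hrd1B the change differed from that in 21WL by -1.73 (adjusted p 2.6e-06) and from that in 21FR by -1.64 (adjusted p 4.4e-06) on the log2 scale. For UTR1 these differences were -1.65 (adjusted p 1.1e-05) and -1.66 (adjusted p 8.0e-06). Both genes also fell in 30WL (log2FC -1.51 and -1.97), with differences of -0.27 (adjusted p 0.64) and -0.17 (adjusted p 0.84). The splicing factor SR30 (399 and 341 CPM at 1 h and 120.1 and 125 CPM at 24 h, log2FC -1.60) and the chaperone BOB1 (104 and 105 CPM at 1 h and 39.9 and 38.7 CPM at 24 h, log2FC -1.41) fell with them. RD28, an aquaporin of the plasma membrane, was at 179 and 126 CPM at 1 h and 19.9 and 16.2 CPM at 24 h (log2FC -3.08, adjusted p 9.3e-10).

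Light-harvesting proteins bind chlorophyll around the photosystems and pass on the energy of absorbed light. Of 25 antenna and Rubisco genes 13 fell and none rose in 30FR (median log2FC -1.0), and 22 passed the adjusted p on the lower side. In 21WL and 30WL none was called (medians -0.23 and -0.05), and in 21FR 6 fell (median -0.50). The list summed to 96260 and 84270 CPM at 1 h and 47570 and 46790 CPM at 24 h. The difference of the changes was called on the lower side for 11 members against 21WL, 4 against 21FR and 14 against 30WL. The mesophyll markers given above moved in the same direction, and their part in these values was not tested.

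The members called were 12 photosystem II antenna genes and LHCA5 of photosystem I. LHCB2.2 was at 918 and 867 CPM at 1 h and 88.2 and 108 CPM at 24 h (log2FC -3.18, SE 0.217, adjusted p 1.7e-09), with 1393 CPM at 3 h and 868 CPM at 6 h between them. In 30WL LHCB2.2 was at 621 and 697 CPM at 1 h and 549 and 400.5 CPM at 24 h, and neither late library there came near the late level of 30FR. LHCB1.4 was at 1497 and 1527 CPM at 1 h and 103 and 136 CPM at 24 h in 30FR (log2FC -3.66, adjusted p 7.1e-09) and at 1213 and 994 CPM at 1 h and 127 and 91.2 CPM at 24 h in 21FR (log2FC -3.34), a pair of conditions with low red to far-red light in both. The difference from 30WL was -3.62 for LHCB1.4 (adjusted p 2.8e-05), -3.07 for LHCB2.3 (adjusted p 2.8e-05) and -2.71 for LHCB2.2 (adjusted p 3.7e-05). From 21FR it was -0.32 for LHCB1.4 (adjusted p 0.66). LHCB1.3 was at 8413 and 8535 CPM at 1 h and 2485 and 2584 CPM at 24 h (log2FC -1.74, adjusted p 4.9e-09) and LHCB1.2 had a log2FC of -2.07, and as LHCB1.1, LHCB1.2 and LHCB1.3 are near-identical copies, their separate values are uncertain.

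Chlorophyll synthesis genes fell together in 30FR: all 14 tested passed the adjusted p on the lower side and 7 were called (median log2FC -0.96). The median was -0.46 in 21WL, -0.49 in 21FR and -0.56 in 30WL, with 2 called lower in 21FR and 1 in 30WL. The difference of the changes was called on the lower side for 2 members against 21WL, 1 against 21FR and 3 against 30WL. HEMA1, the glutamyl-tRNA reductase that opens the pathway, was at 464 and 467 CPM at 1 h and 120.2 and 167 CPM at 24 h (log2FC -1.70, SE 0.131, adjusted p 7.1e-09). CAO, which makes chlorophyll b, was at 272 and 248 CPM at 1 h and 85.3 and 93.3 CPM at 24 h (log2FC -1.54, adjusted p 5.9e-09). GUN4, the activator of magnesium chelatase, was at 292 and 257 CPM at 1 h and 99.3 and 112 CPM at 24 h (log2FC -1.38, adjusted p 7.9e-09). None of these 3 genes had overlapping groups. The fall of HEMA1 differed from that in 30WL by -1.03 (adjusted p 0.0051) and from that in 21FR by -0.22 (adjusted p 0.51). Against 21WL its difference was -0.82 (adjusted p 0.0092), short of the fold threshold. In 21WL itself HEMA1 had a log2FC of -0.88 (adjusted p 4.4e-04) and CAO of -0.76 (adjusted p 5.6e-04). The G-box CACGTG, a motif bound by PIFs and by HY5 in Arabidopsis, was found in 24.0% of the 25 antenna and Rubisco promoters, 14.4% of promoters of genes called lower, 5.09% of those called higher and 7.61% of all. Of the 6 antenna and Rubisco genes with a G-box, only LHCB2.3, LHCB4.1 and LHCB6 were called lower, and the others were not called. LHCB2.3 (chr3:10255790-10255849 on the plus strand) and LHCB6 (chr1:5447973-5448032 on the minus strand), both called lower, are shown with the G-box in capitals (assembly TAIR10.1, strand of the gene).
LHCB2.3: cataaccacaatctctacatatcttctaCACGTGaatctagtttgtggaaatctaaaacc
LHCB6: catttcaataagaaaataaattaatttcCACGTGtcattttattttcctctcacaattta
The abscisic acid response core ACGTGT, which can overlap a G-box by 5 bases, was found in 21.2% of promoters of genes called lower, 9.14% of those called higher and 11.5% of all, counting both strands.

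Flavonoid and anthocyanin genes fell in 11 of 24 cases and rose in none (median log2FC -0.90), with 7 called lower in 21FR and 6 in 30WL. DFR, a reductase of the anthocyanin branch, was at 84.4 and 118 CPM at 1 h and 3.33 and 4.53 CPM at 24 h (log2FC -4.70, SE 0.68, adjusted p 1.6e-05). Its change differed from that in 21WL by -4.33 (adjusted p 0.0043) and was not called different from that in 21FR (-2.16, adjusted p 0.14) or 30WL (-2.87, adjusted p 0.21). Of the list, 6 members differed from 21WL and none from 21FR or 30WL. HYH, a light-response bZIP factor, was at 53.1 and 41.4 CPM at 1 h and 21 and 20.6 CPM at 24 h (log2FC -1.18, adjusted p 5.2e-06) and its homologue HY5 was at 35.1 and 38.1 CPM at 1 h and 21.1 and 16.4 CPM at 24 h (log2FC -0.97, adjusted p 3.4e-06), just short of the fold threshold. HYH was also short of it with library totals (-0.89) and without replicate 1 at 1 h (-0.99).

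Clock genes changed in both directions. Of 21 tested, PRR5, ELF4 and FKF1 rose and 8 fell, among them CCA1 and LHY, the paired MYB repressors that peak at dawn. LHY was at 214 and 117 CPM at 1 h and 12.9 and 14.1 CPM at 24 h (log2FC -3.62, SE 0.289, adjusted p 1.1e-08) and CCA1 at 342 and 192 CPM at 1 h and 27.1 and 33 CPM at 24 h (log2FC -3.15, adjusted p 5.1e-08). The early libraries of both genes differed from each other more than the late ones did, and the groups did not overlap. ELF4, a member of the evening complex that represses PRR9 and PIF4, was at 10.4 and 12.4 CPM at 1 h and 45.9 and 46.2 CPM at 24 h (log2FC 2.0, adjusted p 7.1e-09). PRR5, which represses CCA1 and LHY, was at 10 and 11.7 CPM at 1 h and 27.8 and 26.9 CPM at 24 h (log2FC 1.32, adjusted p 2.9e-05). At 6 h ELF4 was at 40.5 and 40.6 CPM in 30FR and at 36.0 and 33.7 CPM in 30WL. By 24 h it stood at 21.5 and 19.9 CPM in 30WL. For 24 h against 1 h, ELF4 was the 1 gene called higher whose change differed from all 3 other conditions. The difference was 2.28 from 21WL, 1.65 from 21FR and 1.46 from 30WL (adjusted p 5.2e-06, 1.1e-04 and 0.0013). The 7 genes called lower with such a difference from all 3 were LHCB1.1, LHCB1.3, LHCB2.2, LHCB3, AT3G12320 and AT5G06980, which RefSeq also names LNK3 and LNK4, and AT3G21330.

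LHY fell in 21FR (log2FC -3.27) and its change in 30FR differed from that in 30WL by -2.26 (adjusted p 0.0031). It did not differ detectably from that in 21FR (-0.35, adjusted p 0.65). At 6 h LHY was at 9.81 and 5.32 CPM in 30FR and at 11.1 and 13.7 CPM in 30WL. By 24 h it stood at 66.2 and 73.0 CPM in 30WL. TOC1, an evening repressor, was at 119.5 and 141 CPM at 1 h and 152 and 172 CPM at 24 h and was not called (log2FC 0.31, adjusted p 0.16), although its change differed from that in 30WL by 1.13 (adjusted p 0.031), and not detectably from that in 21FR (-0.26, adjusted p 0.58). COL9 (30.4 and 31.6 CPM at 1 h and 56.3 and 62.5 CPM at 24 h) and JMJD5 (24.3 and 32.1 CPM at 1 h and 51.9 and 61.3 CPM at 24 h), a histone demethylase-like clock gene, differed from 30WL by 1.37 (adjusted p 0.0059) and 2.06 (adjusted p 0.014). The rise of JMJD5 within 30FR lay at the fold threshold (log2FC 1.0) and was lost in 6 of the alternatives described at the end. CCR1, an RNA-binding protein under clock control, was at 68.1 and 85.2 CPM at 1 h and 299 and 300.2 CPM at 24 h (log2FC 1.97, adjusted p 3.8e-10). The evening element AAAATATCT was found in 28.6% of the 21 clock promoters, 3.28% of promoters of genes called higher, 2.73% of those called lower and 2.46% of all. Among called clock genes the element was held by PRR5 and FKF1, which rose, and by RVE7, which fell. PRR5 (chr5:8358700-8358759 on the minus strand) and CCR1 (chr4:18275217-18275276 on the minus strand), which rose, are shown with the element, read on either strand, in capitals.
PRR5: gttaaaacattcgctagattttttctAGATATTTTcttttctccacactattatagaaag
CCR1: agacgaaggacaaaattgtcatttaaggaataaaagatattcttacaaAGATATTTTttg

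**Figure D4:**
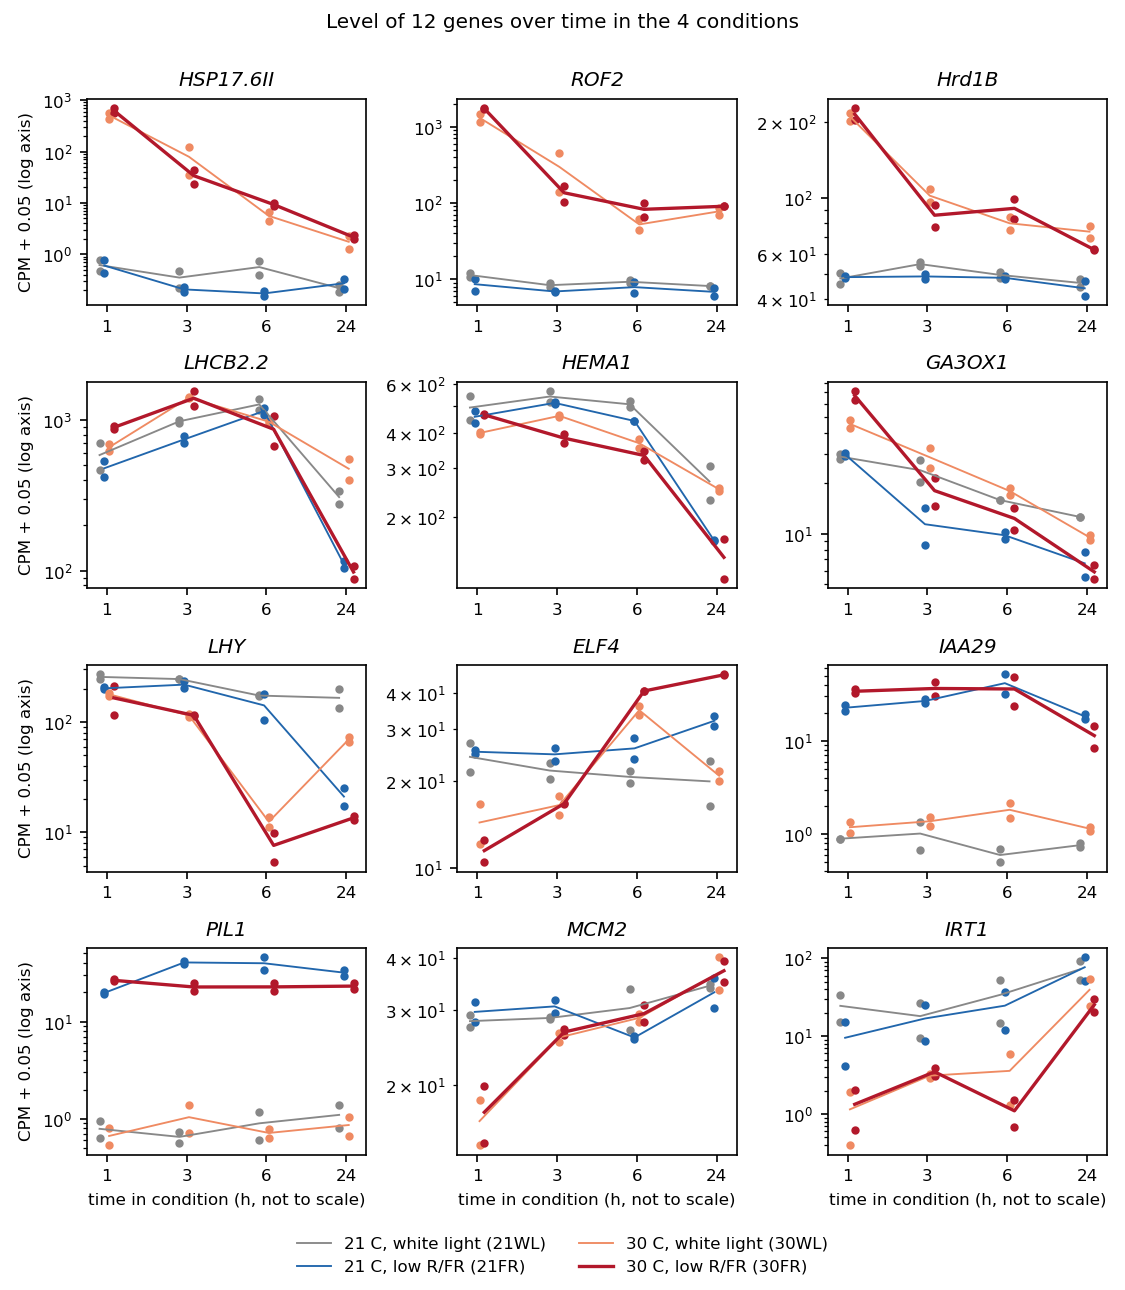
Levels of 12 genes (CPM + 0.05, log axis) at 1, 3, 6 and 24 h (spacing not to scale) in the 4 conditions, with points for libraries and lines through the means. HSP17.6II falls from 694 and 558 CPM to 1.91 and 2.31 CPM in 30FR and LHCB2.2 from 918 and 867 CPM to 88.2 and 108 CPM.

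Shade marker genes, which answer low red to far-red light within the first hour, were lower at 24 h in 7 of 16 cases and higher in none (median log2FC -0.81). In 21FR 1 was called higher and 2 lower, and in 30WL none was called. The list summed to 638 and 724 CPM at 1 h and 383 and 360 CPM at 24 h in 30FR. At 24 h in 21WL the sum was 207 and 174 CPM. The difference of the changes was called for 6 members against 21WL, none against 21FR and 1 against 30WL. ATHB2, a homeodomain factor of shade growth, was at 75.7 and 57.2 CPM at 1 h and 28.7 and 24.3 CPM at 24 h (log2FC -1.32, SE 0.159, adjusted p 1.8e-06), and its change differed from that in 30WL by -1.88 (adjusted p 3.6e-04). In 21FR its log2FC was -0.96 (adjusted p 6.5e-04), and the difference from it was -0.36 (adjusted p 0.36). PAR1, which limits shade growth, was at 10.8 and 11.4 CPM at 1 h and 3.06 and 2.6 CPM at 24 h (log2FC -1.97, adjusted p 1.4e-05). PHYA, the far-red photoreceptor, was at 239.6 and 332 CPM at 1 h and 100.3 and 108 CPM at 24 h (log2FC -1.46, adjusted p 1.1e-07). PIL1, a shade marker encoding a PIF-like factor, was at 27.1 and 25.8 CPM at 1 h and 24.6 and 21.5 CPM at 24 h (log2FC -0.20, adjusted p 0.4) and was not called. In 21WL PIL1 stood at 0.74 ± 0.226 CPM (SD, n = 2) at 1 h and 1.05 ± 0.427 CPM at 24 h, so its level in 30FR at 24 h remained above that of white light at 21 °C.

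Of the 7 PIF genes tested PIF3 and PIF6 fell. PIF4, the main PIF of warmth responses, was at 76.5 and 75 CPM at 1 h and 44 and 44.8 CPM at 24 h (log2FC -0.77, adjusted p 0.013), short of the fold threshold, and rose in 21FR (log2FC 1.45), a difference of -2.22 (adjusted p 9.6e-04). PIF7, a PIF of shade and daytime warmth, was at 13.1 and 11.6 CPM at 1 h and 14.2 and 12.2 CPM at 24 h with overlapping groups (log2FC 0.10, adjusted p 0.69), and its change also differed from that in 21FR (-1.21, adjusted p 0.011). Against 30WL neither PIF4 (-0.62, adjusted p 0.63) nor PIF7 (0.07, adjusted p 0.97) was called different. PIF3 had a log2FC of -1.27 (adjusted p 0.0058), which was -0.98 with library totals and lost its call without replicate 1 at 24 h (adjusted p 0.090). PIF1 and PIF5 had log2FC of -0.55 and -0.70, neither past the fold threshold.

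Auxin genes called in 30FR were all lower: 5 of 17 for synthesis and inactivation (TAR2, YUC7, YUC8, YUC9 and GH3.3), 5 of 25 Aux/IAA repressors and 3 of 12 SAUR growth genes. YUC9, a flavin monooxygenase of the last step of auxin synthesis, was at 9.14 and 7.64 CPM at 1 h and 3.51 and 2.27 CPM at 24 h (log2FC -1.52, adjusted p 3.2e-05). YUC8 was at 12.6 and 14.5 CPM at 1 h and 6.5 and 5.87 CPM at 24 h (log2FC -1.13, adjusted p 0.0013). IAA2 was at 159 and 153 CPM at 1 h and 50.9 and 42.7 CPM at 24 h (log2FC -1.74, adjusted p 5.1e-08) and IAA29, an early shade gene, at 35.6 and 32.4 CPM at 1 h and 14.3 and 8.39 CPM at 24 h (log2FC -1.57, adjusted p 1.3e-04). No groups of these 4 genes overlapped. SAUR20, of the group that promotes cell expansion, was at 13.3 and 11.7 CPM at 1 h and 6.29 and 5.79 CPM at 24 h (log2FC -1.05, adjusted p 0.0015), and its difference from 30WL was -2.12 (adjusted p 0.011). It also fell in 21FR (log2FC -1.02, adjusted p 0.011), with a difference of -0.03 (adjusted p 0.97). Of the 12 SAUR genes 5 rose in 30WL and 4 fell in 21FR (median -0.79, beside -0.63 in 30FR), and none was called different from 21FR. The calls of SAUR20, SAUR64 and SAUR65 in 30FR were lost with library totals (log2FC -0.76, -0.85 and -0.91) and when replicate 1 at 1 h was left out (-0.95, -0.98 and -0.94). That of SAUR20 was also lost without replicate 2 at 24 h (-0.99) and that of SAUR64 without replicate 1 at 24 h (adjusted p 0.050).

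Gibberellin genes fell in 3 of 18 cases, all oxidases of hormone synthesis (GA20OX1, GA20OX3 and GA3OX1). GA3OX1, which makes the active gibberellin, was at 63 and 71 CPM at 1 h and 6.39 and 5.29 CPM at 24 h (log2FC -3.52, SE 0.222, adjusted p 5.3e-10), with 18 CPM at 3 h and 12.3 CPM at 6 h. Its fall differed from that in 21WL by -2.31 (adjusted p 1.4e-04) and from that in 21FR by -1.36 (adjusted p 0.012), while the difference from 30WL was not called (-1.25, adjusted p 0.071). GA3OX1 also fell in 21WL (log2FC -1.20), 21FR (-2.16) and 30WL (-2.27). GAI, a DELLA repressor, was at 58.2 and 58.1 CPM at 1 h and 38.2 and 40 CPM at 24 h (log2FC -0.57), and the median of the list changed sign from -0.15 to 0.14 with library totals. Of 10 brassinosteroid genes BR6OX1 rose (log2FC 1.24) and BR6OX2 (67.2 and 60.8 CPM at 1 h and 20.3 and 17.9 CPM at 24 h, log2FC -1.74) and BAS1 (21.4 and 24.8 CPM at 1 h and 6.53 and 7.05 CPM at 24 h, log2FC -1.77) fell, a pair of synthesis oxidases and an inactivating hydroxylase. Expansins and xyloglucan endotransglucosylases (XTHs), which loosen cell walls, held 2 genes that rose and 9 that fell among 27, and their median of -0.23 became 0.05 with library totals and 0.01 without replicate 2 at 1 h. EXPA15 was at 17.1 and 19.4 CPM at 1 h and 40.4 and 44.2 CPM at 24 h (log2FC 1.21, adjusted p 2.7e-05), XTH5 at 58 and 62.5 CPM at 1 h and 20.9 and 21 CPM at 24 h (log2FC -1.53, adjusted p 4.9e-07) and XTH9 at 169 and 234 CPM at 1 h and 85.2 and 71.5 CPM at 24 h (log2FC -1.36, adjusted p 4.1e-06).

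Genes of abscisic acid and dehydration fell in 9 of 19 cases and rose in none (median log2FC -1.57), as 9 did in 30WL (median -1.98). None was called in 21WL (median -0.95) or 21FR (median 0.12). The difference of the changes was called on the lower side for 3 members against 21FR and for none against 21WL or 30WL. COR47 had a log2FC of -0.73 in 21WL (adjusted p 0.025). COR15A, a chloroplast protein of cold tolerance, was at 36.5 and 27.9 CPM at 1 h and 0.382 and 0.713 CPM at 24 h (log2FC -5.89, adjusted p 0.014). Its call was lost without either 24 h library, with adjusted p of 0.10 and 0.073. The dehydrins LTI30 (81.7 and 60 CPM at 1 h and 13.5 and 12.2 CPM at 24 h, log2FC -2.46) and COR47 (549 and 482 CPM at 1 h and 235 and 196 CPM at 24 h, log2FC -1.26) and the NAC factor RD26 (59.6 and 43.6 CPM at 1 h and 19.4 and 17.3 CPM at 24 h, log2FC -1.49) fell without overlap, with COR47 at -0.97 under library totals. KIN1 and KIN2, and COR15A and COR15B, are close copies, and their separate values are uncertain.

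Iron homeostasis genes were among the largest rises. Of 15 tested 8 rose and FER4 fell (median log2FC 1.16), and 5 to 8 rose in each of the other conditions. The transcription factor BHLH100, which switches on iron uptake, had 3 and 0 counts at 1 h and 845 and 230 counts at 24 h, a ratio of 231 with a 95% counting interval of 78.8 to 1121. BHLH39 was at 0.344 and 0.103 CPM at 1 h and 15.1 and 7.72 CPM at 24 h (log2FC 5.74, adjusted p 1.8e-04) and its close copy BHLH38 at 0.412 and 0.207 CPM at 1 h and 13.7 and 6.21 CPM at 24 h (log2FC 5.04, adjusted p 2.6e-04). IRT1, the iron transporter of the root surface, was at 1.99 and 0.568 CPM at 1 h and 30.2 and 20.3 CPM at 24 h (log2FC 4.39, SE 0.995, adjusted p 0.0014). Its groups did not overlap, and its rise was not shown to differ from that in 21WL (2.84, adjusted p 0.18). In 21WL IRT1 was at 15.3 and 33.6 CPM at 1 h and 52.5 and 91.6 CPM at 24 h, above 30FR at both times. BTS, a ligase that restrains iron uptake, was at 79.5 and 65.5 CPM at 1 h and 248 and 182 CPM at 24 h (log2FC 1.57, adjusted p 3.2e-05), OPT3, an iron transporter of the phloem, at 76.5 and 51.9 CPM at 1 h and 154 and 123 CPM at 24 h (log2FC 1.12, adjusted p 9.8e-05) and FER4, a ferritin that stores iron, at 68.8 and 78.5 CPM at 1 h and 20.5 and 26.1 CPM at 24 h (log2FC -1.66, adjusted p 1.1e-04). The call of OPT3 was lost without replicate 2 at 1 h (log2FC 0.86) or replicate 1 at 24 h (0.95).

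Glucosinolates are sulphur-rich defence compounds made in one branch from methionine and in another from tryptophan. Of 17 genes 7 rose and none fell in 30FR, against 9 called higher in 21WL and 7 in 21FR and in 30WL. At the adjusted p alone 9 were higher and 5 lower in 30FR. The median log2FC was 0.49 in 30FR, 1.095 in 21WL, 0.81 in 21FR and 0.31 in 30WL. The change in 30FR was called more negative for 4 members against 21WL, 2 against 21FR and 0 against 30WL, and more positive for none. The 7 comprised the regulator MYB29 and the methionine branch genes MAM1, BCAT4, CYP79F1, CYP79F2, CYP83A1 and SOT18. MAM1, which lengthens the methionine chain, was at 1.31 and 0.568 CPM at 1 h and 18.6 and 24.3 CPM at 24 h (log2FC 4.57, adjusted p 1.9e-04). CYP83A1 was at 2.61 and 2.32 CPM at 1 h and 18.3 and 24.6 CPM at 24 h (log2FC 3.12, adjusted p 3.8e-04). CYP79F1 had 0 and 1 counts at 1 h and 99 and 217 counts at 24 h, a ratio of 204 with a counting interval of 36.3 to 8067. IPMI1, an isomerase of the chain elongation cycle outside the list, was at 0.962 and 0.723 CPM at 1 h and 12.5 and 13.2 CPM at 24 h (log2FC 3.94). CYP79B3 of the tryptophan branch was at 86.7 and 83.5 CPM at 1 h and 51.4 and 49.2 CPM at 24 h (log2FC -0.76, adjusted p 3.2e-04), and its change differed from that in 21WL by -1.22 (adjusted p 0.0013) and from that in 21FR by -1.12 (adjusted p 0.003). Against 30WL the difference was not called (-0.78, adjusted p 0.095).

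Of 18 jasmonate genes 7 rose and none fell, and 7 rose in 30WL, 1 in 21WL and none in 21FR. The median log2FC was 0.50 in 30FR, 0.31 in 21WL, 0.25 in 21FR and 0.31 in 30WL. No member was called different in its change from 21WL, 21FR or 30WL. LOX3, a lipoxygenase of the first step of synthesis, was at 3.99 and 3.87 CPM at 1 h and 10.2 and 12.2 CPM at 24 h (log2FC 1.51, adjusted p 9.0e-07). AOS, which acts next, was at 72.1 and 71.5 CPM at 1 h and 154 and 166 CPM at 24 h (log2FC 1.15, adjusted p 1.3e-04). JAZ6, a repressor of the response, was at 7.36 and 8.21 CPM at 1 h and 17 and 15.9 CPM at 24 h (log2FC 1.08, adjusted p 3.3e-05). Groups did not overlap for any of the 3 genes. In 21WL LOX3 had a log2FC of 0.91 (adjusted p 0.0034) and AOS of 0.77 (adjusted p 0.029). Among 10 salicylic acid genes tested none was called, with ICS1, which makes its precursor, at 14.9 and 15 CPM at 1 h and 7.85 and 7.76 CPM at 24 h (log2FC -0.94, adjusted p 6.0e-07). At the adjusted p alone 2 of them were higher and 1 lower, beside 4090 higher and 4186 lower of all 20145 genes.

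Cell division genes were higher in 4 of 26 cases (CDKB1;2, MCM2, MCM3 and MCM6), with 19 passing the adjusted p on the higher side (median log2FC 0.60), and 3 rose in 30WL. Their summed level in 30FR was 326 and 361 CPM at 1 h and 530 and 496 CPM at 24 h. In 21WL it was 456 and 462 CPM at 1 h and 477 and 529 CPM at 24 h. The sum in 30FR thus lay below that in 21WL at 1 h and overlapped it at 24 h. MCM2, a subunit of the helicase that opens replication origins, was at 14.5 and 19.9 CPM at 1 h and 39.3 and 35.1 CPM at 24 h (log2FC 1.1, adjusted p 2.3e-06), and its log2FC was 0.91 without replicate 1 at 1 h. MCM5 (18.7 and 21.8 CPM at 1 h and 40.5 and 39.7 CPM at 24 h, log2FC 0.98) and MCM7 (16.6 and 19.5 CPM at 1 h and 36.8 and 34.6 CPM at 24 h, log2FC 0.98) lay just under the fold threshold. The stomatal lineage held 4 genes that fell among 12 (MUTE, EPF1, EPF2 and BASL), as many as in 30WL. BASL, which marks the pole of dividing stomatal precursors, was at 7.49 and 7.64 CPM at 1 h and 2.36 and 2.48 CPM at 24 h (log2FC -1.65, adjusted p 4.2e-06). EPF2, a peptide that limits entry into the lineage, was at 6.33 and 6.61 CPM at 1 h and 2.71 and 2.22 CPM at 24 h (log2FC -1.39, adjusted p 3.4e-05). The dividing cell and stomatal marker sums given above moved in the same directions, and their part in these values was not tested.

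Of 13 secondary wall genes all had a positive log2FC and 5 passed the adjusted p on the higher side, while the xylem marker sums given above, which include genes of this list, were higher at 24 h without overlap, and their part in these values was not tested. LAC4, a laccase of lignification, was the 1 called (11.7 and 15.2 CPM at 1 h and 30.8 and 26.46 CPM at 24 h, log2FC 1.08), and its log2FC was 0.92 and 0.97 without replicate 1 at 1 h or at 24 h. None of 8 root hair genes was called, with 2 higher at the adjusted p alone, beside 4090 of all 20145 genes. Trehalose phosphate synthases TPS8 (109 and 104 CPM at 1 h and 47.1 and 50.8 CPM at 24 h, log2FC -1.12) and TPS11 (102 and 79.8 CPM at 1 h and 28.1 and 33.3 CPM at 24 h, log2FC -1.56) fell among 12 energy limitation genes, TPS8 with -0.84 under library totals. SAG13 and NAP fell among 7 senescence genes, ARR16 (log2FC -1.36) among 9 type-A response regulators, and no seed reserve gene of 12 was called, with CRA1 at 0.825 and 1.29 CPM at 1 h and 0.695 and 5.87 CPM at 24 h. Of 13 touch and rapid stress genes ERF5 rose (log2FC 1.44) and XTH22 (log2FC -2.04) and TCH3 (log2FC -1.81) fell, and the sign of that list's median depended on replicate 2 at 1 h (0.14 with it, -0.18 without). Over all genes tested 5.76% were called higher and 4.57% lower, the shares to set beside the calls in these small lists.

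**Figure D5:**
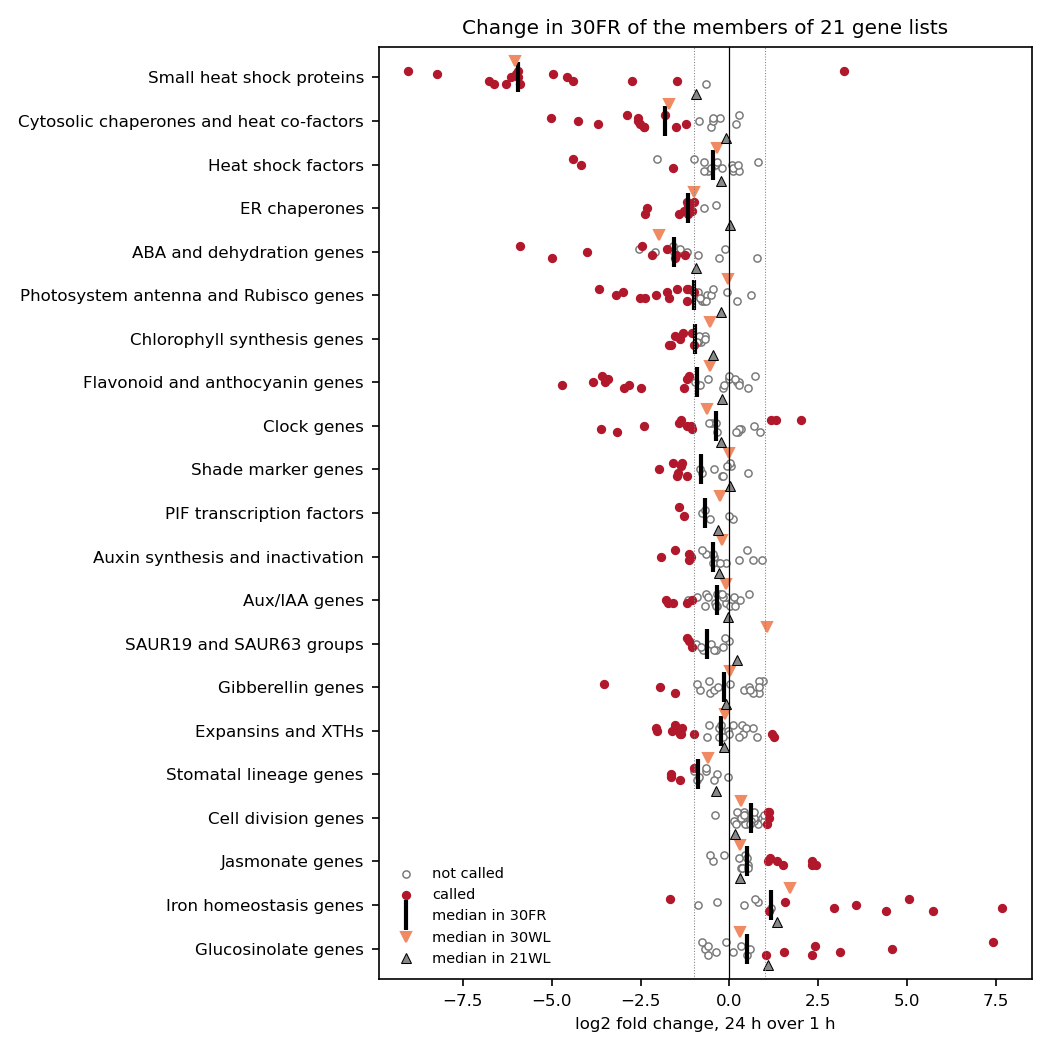
Change from 1 h to 24 h in 30FR (log2FC, horizontal axis) of each tested member of 21 gene lists, with called genes in red, others open, and black bars for the 30FR, orange triangles for the 30WL and grey triangles for the 21WL medians. Small heat shock proteins lie farthest to the left (median -5.95 in 30FR and -6.04 in 30WL), and the antenna list has a median of -1.0 in 30FR beside -0.05 in 30WL.

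Of the remaining genes named by size or by a difference between conditions, several act in sugar metabolism. BAM6, a beta-amylase, was at 0.412 and 0.31 CPM at 1 h and 7.12 and 6.25 CPM at 24 h (log2FC 4.21, adjusted p 2.0e-07). ATSPS4F, a sucrose phosphate synthase, was at 53.8 and 56.4 CPM at 1 h and 185 and 182 CPM at 24 h (log2FC 1.74, adjusted p 5.4e-09). FBA5, a fructose bisphosphate aldolase, was at 107 and 129 CPM at 1 h and 317 and 329 CPM at 24 h (log2FC 1.45, adjusted p 1.5e-07). ASY2, a HORMA domain protein, was at 1.03 and 1.08 CPM at 1 h and 10.08 and 8.68 CPM at 24 h (log2FC 3.14, adjusted p 7.8e-09). P5CR, which completes proline synthesis, was at 150 and 139 CPM at 1 h and 271 and 282 CPM at 24 h (log2FC 0.94, adjusted p 4.2e-07), short of the fold threshold. The change of ASY2 differed from that in 21FR by 2.47 (adjusted p 2.8e-04) and that of P5CR by 1.18 (adjusted p 5.5e-05). Neither was called different from 30WL (1.11, adjusted p 0.24, and 0.76, adjusted p 0.0078).

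The telo-box AAACCCTA, found in many ribosomal protein promoters, was present in 4.66% of promoters of genes called higher, 2.3% of those called lower and 3.57% of all. The site II element TGGGCC was present in 13.8% of promoters of genes called higher, 128 of the 915 of genes called lower and 16.5% of all. Both were searched on either strand of the same 250 bases.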

How the data were processed

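RNA of whole seedlings, in 2 biological replicates per group, was sequenced as single-end stranded libraries. The authors deposited raw read counts per gene for all 32 libraries in 1 table: base calls came from CASAVA 1.8.2, reads were aligned to TAIR10 with STAR 2.5.4 and counted on the reverse strand with HTSeq 0.6.0 in strict intersection mode, and reads that mapped to several places were not counted. Such reads were 16.7% and 12.6% of the total at 1 h and 21.0% and 16.5% at 24 h in 30FR. This lowers the values of genes with near-identical copies. Rows that name no gene were left out of library sizes.

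Here the counts were scaled by TMM and fitted with edgeR 4.0.16 (R 4.3.3, limma 3.58.1) in 1 quasi-likelihood model with a coefficient for each of 16 groups, after the design of the study's methods, for the 20145 genes over 1 CPM in at least 2 libraries. Adjusted p are Benjamini-Hochberg values over all 20145 genes, and a call needs an adjusted p under 0.05 and an absolute log2FC over 1. CPM use the TMM-scaled total of each library. Since groups hold 2 libraries, p-values measure the spread between the replicates named by the labels, pooled over groups. DESeq2 1.42.0, other scalings, filters and left-out libraries were the alternatives. Python 3.11.15 was used for summaries.

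The members and the 30 gene lists were chosen with earlier results of these data known. Genes were named by rule: the 8 largest rises and 8 largest falls among called genes with a symbol and a mean over 5 CPM in the higher group, up to 3 members per list with the smallest adjusted p, 7 fixed genes, and for each difference of changes the 4 called genes with a symbol and the smallest adjusted p in each direction. Other list members named in the text were chosen after their values were seen. Of 502 list genes 470 were tested. Symbols, products and promoters came from RefSeq (assembly TAIR10.1), in which 32835 of 33602 gene IDs had an entry and 20036 tested genes had a promoter.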

Additional observations from a re-analysis of the deposited data

Results flagged for a closer look

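The change from 1 h to 24 h in 30FR differed from the change over the same hours in another condition for 445 genes against 21WL, 402 against 21FR and 77 against 30WL, by edgeR's quasi-likelihood test of the difference itself. All 3 tests use the same 4 libraries of 30FR, and groups of 2 libraries were too small for a check of single outlying samples.

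Against 21WL the difference of changes (log2 scale) was 2.28 for ELF4, 1.56 for FBA5, 1.18 for CCR1 and 1.23 for ATSPS4F, all more positive in 30FR. It was -1.73 for Hrd1B, -1.40 for SR30, -1.65 for UTR1 and -2.72 for RD28. The first group holds a clock gene, an RNA-binding protein under clock control and enzymes of sugar metabolism, and the second an ER ubiquitin ligase, a splicing factor, a nucleotide sugar transporter and an aquaporin.

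Against 21FR it was 1.65 for ELF4, 1.25 for CCR1, 1.18 for P5CR and 2.47 for ASY2. On the other side it was -1.64 for Hrd1B, -1.39 for SR30, -1.66 for UTR1 and -1.52 for BOB1.

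Against 30WL, where the temperature was the same and the light differed, it was 1.46 for ELF4, 1.37 for COL9, 2.06 for JMJD5 and 1.13 for TOC1, all with roles in the clock or in day length responses. It was -2.71 for LHCB2.2, -3.62 for LHCB1.4, -3.07 for LHCB2.3 and -2.26 for LHCB1.2, all antenna proteins of photosystem II.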

How the results depend on the processing

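No called named gene changed sign under any alternative run. With library totals more genes were called higher than lower for the differences from 21WL (550 to 148) and 21FR (513 to 141), against the main split. DESeq2's size factors, its Wald test (1055 higher and 931 lower in 30FR, 93.2% of the calls shared), edgeR's likelihood ratio test and no expression filter each left all 7 counts of called genes within 1.5 times. With the adjusted p alone the counts were 8276 in 30FR, 1085 in 21WL, 2153 in 21FR and 6155 in 30WL, and 1369, 1317 and 147 for the difference of changes against 21WL, 21FR and 30WL. Library totals gave 698 and 654 genes for the differences from 21WL and 21FR and moved 27 of 30 list medians by more than the replicate spread. Fitting the libraries of a contrast alone gave 27 genes in 21WL, 253 for the difference from 21WL and 706 for that from 21FR, with fewer libraries to estimate the spread, and took the median of the seed reserve genes from -0.60 to 0.01. Without 1 library the counts ranged from 1803 to 1934 in 30FR, 110 to 286 in 21WL, 239 to 281 in 21FR, 900 to 1301 in 30WL, 261 to 531 against 21WL, 229 to 329 against 21FR and 40 to 97 against 30WL, where the lone library of an arm is assumed to vary like the other groups. Left out singly, the libraries that moved a count by over 1.5 times were both of 21WL at 1 h (21WL), all 4 of 21FR (21FR, and the difference from it), both of 30FR at 24 h (284 and 261 against 21WL, 46 and 48 against 30WL, and 235 without replicate 2 against 21FR), replicate 1 of 30FR at 1 h (49 against 30WL) and replicate 1 of 30WL at 1 h (49) and at 24 h (40). Of the 123 named genes 9 lost and 8 gained a call with library totals. Deviations of same-numbered replicates had a correlation of 0.030 in 30FR, 0.42 in 21WL, 0.080 in 21FR and -0.0082 in 30WL. The numbers are thus not shown to pair the samples in 30FR, 21FR or 30WL, and pairing in 21WL was not settled. For the genes called in 30FR, 24 h against 1 h, a replicate block gave 2179 (1224 higher, 955 lower), and it changed no named call. The same block gave 282 genes in place of 211 in 21WL, and 566 in place of 445 for the difference from 21WL. With a pseudocount of 2 CPM the shares of the change reached were 36.1% and 43.7% for genes called higher and 45.2% and 60.5% for genes called lower. Depth limits genes near 3 counts, such as BHLH100, CYP79F1 and HSP21, to wide ratios.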

Other observations

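A run of neighbouring genes on chromosome 4, from AT4G22460 to AT4G22530, held some of the steepest rises. Of 9 tested genes in it 6 were called higher in 30FR, and 6 in each of the 3 other conditions. The 6 in 30FR, AT4G22485, AT4G22490, AT4G22505, AT4G22513, AT4G22517 and AT4G22520, are annotated as members of the lipid-transfer protein superfamily, and 5 of them had 0 counts in both 1 h libraries of 30FR. AT4G22485 was at 56.5 and 25.5 CPM at 24 h, and AT4G22505 at 21.3 and 8.26 CPM, both from 0 counts at 1 h. AT4G22490 was at 0.481 and 0.930 CPM at 1 h and 30.1 and 14.1 CPM at 24 h. The neighbours AT4G22460, AT4G22470 and AT4G22530 were not called. These copies resemble each other, so reads they share were not counted and their separate values are uncertain.

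FT, the mobile signal for flowering, was at 0 and 0.0517 CPM at 1 h and 1.39 and 1.05 CPM at 24 h in 30FR (adjusted p 3.6e-05 by edgeR's quasi-likelihood test). It was also called higher in 21FR, where it stood at 7.73 and 7.76 CPM at 24 h, and in 30WL it had 0 counts in both libraries at 24 h. AOP2 was at 0 in both 1 h libraries of 30FR and at 2.502 and 2.433 CPM at 24 h. It was called higher in all 4 conditions. These genes were chosen after their values were seen.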
